A study of Mus musculus with 4 samples.

Results

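JAK, STAT and SOCS genes encode the core of cytokine receptor signalling, and 10 of them (Jak1, Jak2, Jak3, Tyk2, Stat3, Stat5a, Stat5b, Socs1, Socs3 and Cish) were taken by gene name from a table of 47729 genes and followed in neutrophils with and without Mif, the gene of the cytokine macrophage migration inhibitory factor. Janus kinases sit on the inner tails of cytokine receptors, where a bound ligand brings them together to phosphorylate the receptor and the STAT transcription factors docked on it. SOCS proteins, which include CISH, are made in response to the same signal and shut it off. In neutrophils G-CSF signals mainly through STAT3 and GM-CSF mainly through STAT5, and SOCS3 limits the response to G-CSF.

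Total RNA was sequenced in 4 libraries of sorted neutrophils, 2 of wild-type and 2 of Mif -/- (knockout) genotype. All came from BALB/c SKG mice given curdlan, a bacterial beta-glucan, 8 weeks earlier, and the sorted cells were drawn from bone marrow as well as spleen, in proportions the labels do not give. SKG mice carry a mutation of the T cell kinase gene Zap70, so both genotypes share it, and there was no group without curdlan. Separate animals are not named for the replicates, and the spread behind the p-values is that between these samples and may be technical. With bulk RNA, fewer cells of a type and less RNA per cell cannot be told apart.

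As a check of the labels, Mif had no signal, 0 FPKM (fragments per kilobase of transcript, scaled to library size), in either knockout library, against 0.882 FPKM for wild-type replicate 1 and 2.88 FPKM for replicate 2. The steps between low values put the knockout libraries at 5.28 and 4.80 times the depth of wild-type replicate 2, and wild-type replicate 1 at 1.23 times, and wild-type and knockout libraries were run in different lanes (2 and 1), so that genotype, depth and lane cannot be told apart. Of 10 neutrophil markers 9 reached 1 FPKM in at least 1 library, the early granule gene Elane being the exception, and their sum was 100813 to 107068 FPKM. Among them Cxcr2 was at 449 to 500 FPKM, Ly6g was at 519 and 491 against 918 and 936 FPKM, Retnlg and Mmp9 were also higher in both knockout libraries, and S100a8 and S100a9 were lower in both. The part of these marker differences in the results below was not tested. In every library 7 of 8 T cell and 5 of 5 natural killer cell markers were under 1 FPKM, the exception being Cd3d at 62.0 to 72.2 FPKM, which made up nearly all of the T cell sum (62.3 to 72.8 FPKM). The 10 monocyte and macrophage markers summed to 47.8 and 64.5 FPKM for wild type against 54.8 and 61.5 FPKM for knockout, and the 7 erythroid markers to 3.69 and 15.9 against 13.8 and 14.2 FPKM, wild-type replicate 1 being lowest on both. The 8 B and plasma cell markers summed to 196 and 159 against 35.7 and 41.3 FPKM.

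All 10 genes reached the level required for testing, a genotype mean of 1 FPKM, and their FPKM, summed over each gene's transcripts, spanned from about 100 to under 2. Because FPKM is per length, levels of different genes can be set side by side. Stat3 stood at 105 to 119 FPKM over the 4 libraries, Jak1 at 105 to 118 FPKM and Socs3 at 68.6 to 116 FPKM. These 3 overlapped in range, so their sums do not order them. Over protein-coding transcripts alone, a split chosen after the data were seen, Jak1 was above Stat3 in every library. Jak1 then stood at 98.2 to 112 FPKM and Stat3 at 84.8 to 89.9 FPKM, and Socs3 overlapped both at 67.1 to 112 FPKM. Below them came Stat5b (36.9 to 40.7 FPKM), Jak2 (18.4 to 19.9 FPKM), Jak3 (12.9 to 16.4 FPKM), Tyk2 (6.37 to 8.28 FPKM) and Stat5a (5.52 to 6.09 FPKM), none of whose ranges met. Socs1 (1.84 to 2.32 FPKM) and Cish (1.57 to 1.74 FPKM) were lowest, also apart from each other. Among these 10, each family thus had 1 member near 100 FPKM in both genotypes.

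**Figure D1:**
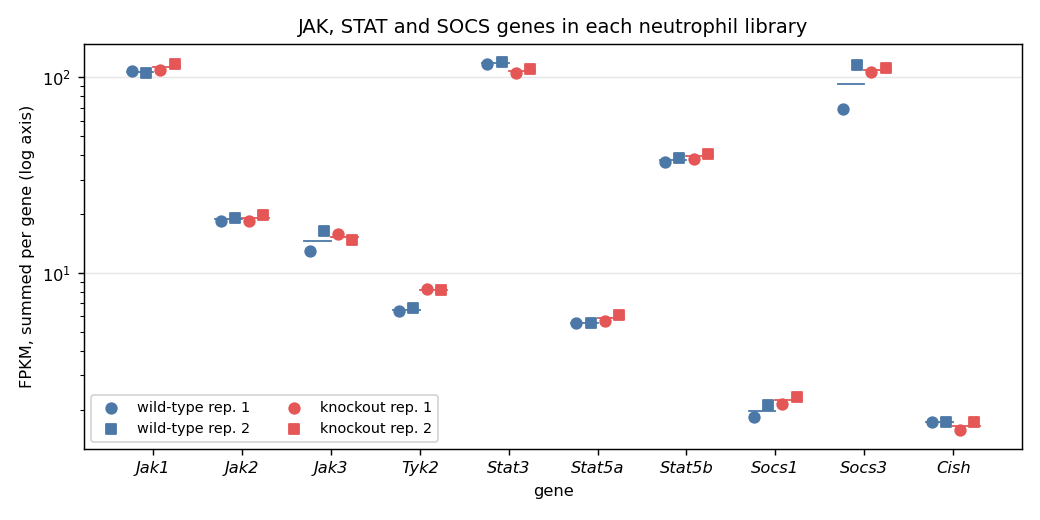
FPKM summed per gene (log axis) for the 10 genes, each point a library (blue wild type, red knockout, circles replicate 1, squares replicate 2) and each short line a genotype mean of 2 libraries. Stat3, Jak1 and Socs3 stand near 100 FPKM and Socs1 and Cish near 2 FPKM, and wild-type replicate 1 falls below the other libraries for Socs3.

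None of the 10 genes passed the threshold between genotypes (limma on log2(FPKM + 1), Benjamini-Hochberg adjusted p under 0.05), where 0.342% of the 10221 genes tested did. With an unadjusted p under 0.05 there was only Tyk2, 1 gene, higher in knockout (8.35% of all genes tested were), and 0 lower (9.56%). An ordinary linear model per gene called 0 of all genes tested, so its 0 of these 10 says nothing about them. Both knockout libraries lay above both wild-type libraries for 4 genes (Tyk2, Jak1, Socs1 and Stat5a; 29.6% of all genes tested) and below them for 1 (Stat3; 23.1%). Counts from 10 genes are too few to set them apart from those shares. The median log2 difference was 0.07, against 0.02 over all genes tested, with 8 of the 10 differences positive (54.2% of all genes tested). For 9 of the 10 the 95% interval of the difference lay within 1.5-fold in either direction on the log2(FPKM + 1) scale, the exception being Socs3.

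**Figure D2:**
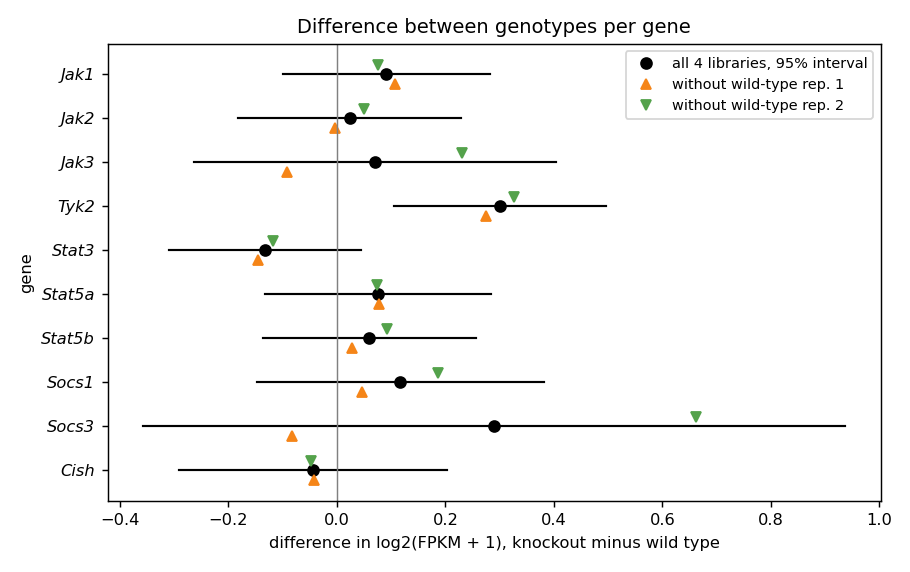
Difference in log2(FPKM + 1), knockout minus wild type, per gene, with the limma 95% interval over 2 against 2 libraries (black) and the value with either wild-type library left out (triangles). Only the interval of Tyk2 excludes 0, before adjustment, and Socs3 moves from -0.08 to 0.66 depending on which wild-type library is left out.

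Among the kinases, Tyk2, which serves the type I interferon, IL-12 and IL-23 receptors, showed the clearest separation. The gene (ENSMUSG00000032175, minus strand of chromosome 9, 21104068 to 21131243 of GRCm38) has 1 transcript in the table used here, Tyk2-201 (21104069 to 21127346), which stood at 6.37 and 6.63 FPKM for wild type against 8.28 and 8.20 FPKM for knockout. The genotypes did not overlap, and the gap between them exceeded the gap within either. The log2 difference was 0.30 ± 0.08 (SE, n = 2 per group; limma adjusted p = 0.164 and 95% interval 0.11 to 0.50). Leaving out wild-type replicate 1 gave 0.28 and leaving out replicate 2 gave 0.33. Leaving out knockout replicate 1 gave 0.295 and leaving out knockout replicate 2 gave 0.307. Each of these fits leaves 1 library in a genotype, assumed to vary like those of the other genotype, so only the differences are given. The span of an antisense gene, 1700084C06Rik, overlaps that of Tyk2 over 24326 bases, introns included, and the gene was listed at no more than 0.0202 FPKM. Where exons overlap, which was not checked, unspliced reads can be told apart only if the counting used strand.

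Jak1 (ENSMUSG00000028530, minus strand of chromosome 4, 101152367 to 101265282 of GRCm38), a partner in most cytokine receptors including those of interferons and the IL-6 family, stood at 108 and 105 FPKM for wild type against 109 and 118 FPKM for knockout (0.09 ± 0.07, SE, n = 2 per group; limma adjusted p = 0.558). Its genotypes did not overlap, but wild-type replicate 1 and knockout replicate 1 lay closer to each other than the 2 knockout libraries did. Jak2 (ENSMUSG00000024789, chromosome 19), the kinase of the GM-CSF, IL-3 and erythropoietin receptors, stood at 18.5 and 19.2 against 18.4 and 19.9 FPKM (0.02 ± 0.08; limma adjusted p = 0.897 and 95% interval -0.18 to 0.23). Jak3 (ENSMUSG00000031805, chromosome 8), which binds the common gamma chain, stood at 12.9 and 16.4 against 15.8 and 14.8 FPKM (0.07 ± 0.13; limma adjusted p = 0.807), and its difference was -0.09 without wild-type replicate 1. Both overlapped between genotypes. Within a library Jak1 exceeded Jak2 5.83-fold and 5.48-fold in wild type and 5.94-fold and 5.91-fold in knockout. The ratio of Jak1 to Tyk2 was 16.9 and 15.9 in wild type and 13.2 and 14.3 in knockout, without overlap. This ratio rests on the Tyk2 values above and is not a separate result.

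Transcripts of the kinases were dominated by 1 or a few coding forms. Jak1-201, of 1153 codons, held 91.9% to 94.3% of Jak1 FPKM, and Jak2-202, of 1132 codons, 92.7% to 97.3% of Jak2 FPKM. Jak3 was spread over Jak3-203 (49.1% to 58.0%), Jak3-201 (18.3% to 29.98%) and the retained-intron form Jak3-204 (10.1% to 23.7%), highest in wild-type replicate 2. Jak3-203 and Jak3-201 have the same coding length of 1100 codons. Read division among such forms is an estimate.

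The 3 STAT genes lie together on chromosome 11 of GRCm38: Stat5b (100780731 to 100850724, minus strand), Stat5a (100859351 to 100885169, plus strand) and Stat3 (100885098 to 100939540, minus strand). Stat5a and Stat3 run towards each other and their annotated ends share 72 bases. Stat5b stood at 36.9 and 38.6 FPKM for wild type against 38.2 and 40.7 FPKM for knockout (0.06 ± 0.08; limma adjusted p = 0.715). Stat5a stood at 5.54 and 5.52 against 5.69 and 6.09 FPKM (0.08 ± 0.08; limma adjusted p = 0.660). Both encode the STAT5 that GM-CSF activates, and in neither did the genotypes differ beyond the spread that the model allows. Stat5b exceeded Stat5a 6.67-fold and 6.99-fold in wild type and 6.72-fold and 6.69-fold in knockout, a ratio that hardly varied among the 4 libraries. Of the stretches of 100 bases, the read length, in the main Stat5a transcript 7.56% also occur in Stat5b, and 5.34% of those of the main Stat5b transcript occur in Stat5a. No other pair of the 10 genes shared such a stretch. Among the 10, sharing of whole reads thus bears on a small part of these 2 genes only. Sharing with genes outside the 10 was not checked.

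Stat3 (ENSMUSG00000004040), the main STAT of the G-CSF, IL-6 and IL-10 receptors, stood at 117 and 119 FPKM for wild type against 105 and 110 FPKM for knockout. The genotypes did not overlap, and the log2 difference was -0.13 ± 0.07 (SE, n = 2 per group; limma adjusted p = 0.386 and 95% interval -0.31 to 0.05). Split by annotated type, the protein-coding transcripts summed to 86.9 and 84.8 FPKM for wild type against 86.7 and 89.9 FPKM for knockout, which overlapped. The other transcripts, mostly fragments annotated as retaining an intron, summed to 30.1 and 34.5 against 18.6 and 20.3 FPKM. Over protein-coding transcripts alone, a split chosen after the data were seen, the log2 difference was 0.04 (limma adjusted p = 0.773). The lower Stat3 sum of the knockout libraries thus lay in the transcripts that are not annotated as coding.

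All 8 Stat3 transcripts of that kind that were tested were lower in both knockout libraries than in both wild-type libraries. Stat3-211, a retained-intron form, stood at 6.84 and 6.08 against 3.21 and 3.75 FPKM (-0.74 ± 0.13; limma adjusted p = 0.163). Stat3-208 stood at 6.48 and 7.75 against 3.88 and 4.30 FPKM (-0.67 ± 0.14; limma adjusted p = 0.179), and Stat3-206 at 4.27 and 5.96 against 2.60 and 3.29 FPKM (-0.62 ± 0.20; limma adjusted p = 0.241). None of the 8 passed the threshold, and 5 had an unadjusted p under 0.05, of which 4 were among the 7 retained-intron forms (24.7% of all 3400 retained-intron transcripts tested were lower at that p). The pattern was wide in these libraries: 62.7% of those 3400 lay below in both knockout libraries and 4.94% above. The remaining 1, the processed transcript Stat3-214, stood at 2.46 and 2.26 against 1.61 and 1.56 FPKM, and 57.5% of such transcripts of all genes lay below and 7.75% above. For the 10 genes together, 31 transcripts were tested and 0 passed (0.239% of all 19696 did). Of these, 1 had an unadjusted p under 0.05 and was higher in knockout (Tyk2-201; 6.96% of all) and 5 were lower (12.2% of all). An ordinary linear model called 0 of all transcripts, these included. Both knockout libraries lay above both wild-type libraries for 7 of the 31 (24.2% of all transcripts tested) and below them for 12 (32%). Of the 18 coding ones this was 7 above (33% of coding transcripts of all genes) and 2 below (18.4%). Of the 13 others, all retained-intron or processed transcripts, 0 lay above and 10 below. Shares of these types over all genes, mostly below, are given above. In the authors' deposited table, 0 of the 49 transcripts of these genes had a q under 0.05 (0.0685% of all with a q did), the lowest being 0.282.

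The share of a gene's FPKM in transcripts that are not annotated as coding was lower in both knockout libraries for 4 of the 7 genes that have such transcripts (50.8% of 5561 genes of this kind, against 7.84% in which it was higher). For Stat3 it was 25.8% and 28.9% in wild type and 17.7% and 18.4% in knockout. For Jak1 it was 6.84% and 6.72% against 5.39% and 5.07%. For Jak3 it was 16.4% and 25.4% against 11.9% and 15.8%, and for Socs3 2.15% and 2.88% against 2.04% and 1.77%. The median share over all such genes was 14.5% and 15.1% in wild type and 10.9% and 11.6% in knockout. Depth and lane also differed between the genotypes, and their part in this was not tested.

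**Figure D3:**
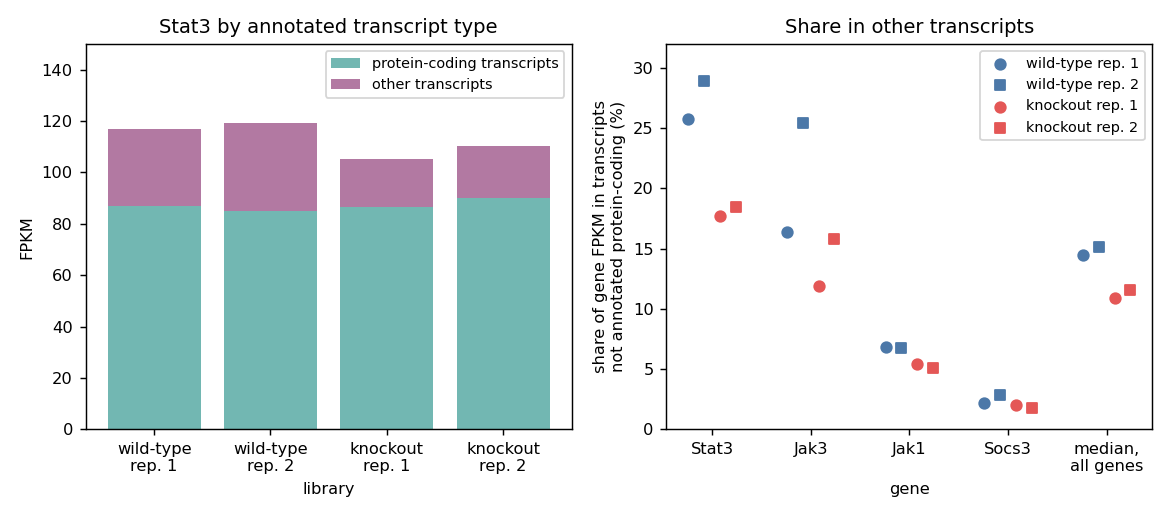
Left, Stat3 FPKM per library, split into protein-coding transcripts (green) and others (purple). Right, share of gene FPKM in the other transcripts for Stat3, Jak3, Jak1 and Socs3 and the median over 5561 genes (points are libraries). The coding part of Stat3 is between 84.8 and 89.9 FPKM in all 4 libraries, while the other part is lower in both knockout libraries.

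Stat3 is known for its alpha and beta forms, of which beta skips part of an exon and so ends in a different, shorter tail without the transactivation domain. Stat3-203 (770 codons) has the length of alpha and Stat3-202 (722 codons) that of beta. Only bases of Stat3-203 between its first and last exons were compared. Of these, Stat3-202 skips 50 at chr11:100889541-100889590 of GRCm38, minus strand. Stat3-201 (769 codons) skips 3 at chr11:100893074-100893076. These stretches are shown because reads across them help to tell the forms apart, beside the different transcript ends given below. They are from GENCODE M21 transcripts, written 5′ to 3′ with the skipped bases in capitals and 15 bases of Stat3-203 on either side.
Stat3-203 against Stat3-202: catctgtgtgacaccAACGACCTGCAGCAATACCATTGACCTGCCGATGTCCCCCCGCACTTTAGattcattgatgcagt
Stat3-203 against Stat3-201: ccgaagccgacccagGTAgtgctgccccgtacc

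Stat3-203 was the leading form in every library, at 73.9 and 65.7 FPKM for wild type against 47.1 and 73.7 FPKM for knockout. Stat3-202, with the shorter reading frame, stood at 8.98 and 10.2 against 17.9 and 8.31 FPKM, and Stat3-201 at 3.92 and 8.76 against 21.5 and 7.77 FPKM. Knockout replicate 1 stood apart in all 3, while knockout replicate 2 lay among or next to the wild-type libraries. Stat3-202 made up 10.3% and 12.0% of the 3 forms in wild type and 20.7% and 9.26% in knockout. The log2 differences were -0.24 ± 0.25 for Stat3-203 (limma adjusted p = 0.613), 0.33 ± 0.39 for Stat3-202 (limma adjusted p = 0.653) and 1.02 ± 0.61 for Stat3-201 (limma adjusted p = 0.426). Without knockout replicate 1 they were 0.08 for Stat3-203 and -0.18 for Stat3-202, the reverse of their directions with it, and 0.34 for Stat3-201, which was 1.70 with knockout replicate 2 left out instead. The 3 models also end at different places (100886810 for Stat3-203, 100885098 for Stat3-202 and 100888236 for Stat3-201), so their estimates rest on the length of the last exon as well as on the skipped bases.

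**Figure D4:**
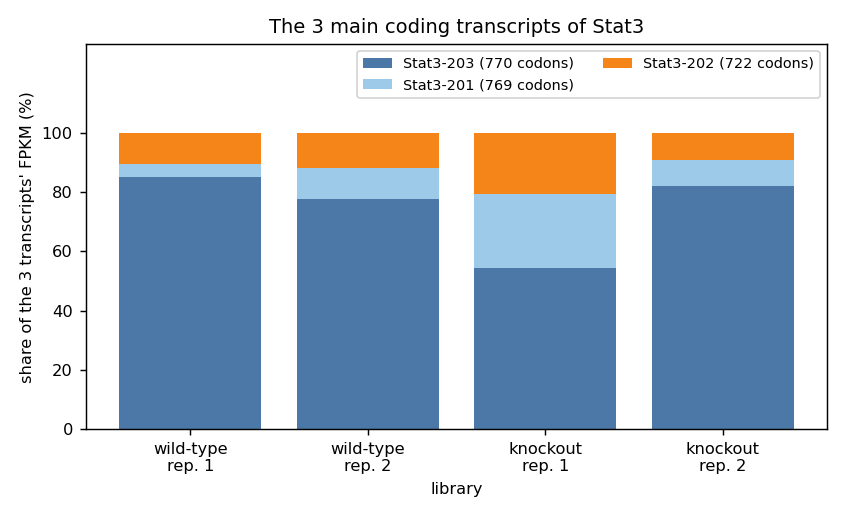
Share of each of the 3 main coding transcripts of Stat3 in their summed FPKM, per library. Stat3-203 takes 54.5% in knockout replicate 1 and 77.7% to 85.1% in the other 3 libraries.

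The same library differed in the transcript estimates of 2 other genes. Stat5a-202, of 793 codons, stood at 0.969 FPKM in knockout replicate 1 and was listed at 0 in the other 3 libraries, while Stat5a-201, with the same coding length, was lowest there (0.881 FPKM, against 1.26 to 1.38 FPKM). Of Cish FPKM, the full-length form Cish-201, of 257 codons, held 49.8% in that library and 64.0% to 73.6% in the others.

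SOCS3 and CISH are themselves products of STAT signalling, and the motif TTCNNNGAA, the palindrome that STAT dimers bind, was searched in RefSeq promoter windows of GRCm38.p6 from 250 bases before to 50 after each start site (a palindrome reads alike on both strands). It was found in 2 of the 12 windows of the 10 genes, those of Cish and Socs3, against 8.30% of all 32851 windows. Cish holds 2 copies, as 0.457% of all windows do. The 30 bases around them are shown because they are the only matches among the 10 genes. Capitals mark the motif, which begins at positions 1 and 12 from the RefSeq start site of Cish (window chr9:107296654-107296683, plus strand) and at position -154 from that of Socs3 (window chr11:117969502-117969531, minus strand). The leading transcripts of both genes start elsewhere in GENCODE, Cish-201 at 107296026 and Socs3-201 at 117969186. The Cish window thus lies within the span of Cish-201.
Cish: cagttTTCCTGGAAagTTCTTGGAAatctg
Socs3: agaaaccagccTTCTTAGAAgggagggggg

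Cish (ENSMUSG00000032578, plus strand of chromosome 9, 107296026 to 107302784 of GRCm38), which binds receptors at STAT5 docking sites, was the lowest of the 10 genes, at 1.74 and 1.73 FPKM for wild type against 1.57 and 1.73 FPKM for knockout (-0.04 ± 0.10; limma adjusted p = 0.838). For the length of Cish-201, 3 of the smallest steps equal 0.0190 and 0.0233 FPKM for wild type against 0.00442 and 0.00487 FPKM for knockout, so its level was far above what such a step allows. Socs1 (ENSMUSG00000038037, minus strand of chromosome 16, 10782240 to 10785536), the inhibitor best known for interferon signalling, stood at 1.84 and 2.13 against 2.14 and 2.32 FPKM (0.12 ± 0.10; limma adjusted p = 0.584). The genotypes did not overlap, though wild-type replicate 2 and knockout replicate 1 nearly met. Both promoter windows with the motif thus belong to genes at opposite ends of the range, Socs3 near 100 FPKM and Cish under 2 FPKM.

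Socs3 (ENSMUSG00000053113, minus strand of chromosome 11, 117966079 to 117970047 of GRCm38), which binds the G-CSF receptor and the shared receptor chain of the IL-6 family, stood at 68.6 and 116 FPKM for wild type against 106 and 112 FPKM for knockout. Wild-type replicate 1 was low and the other 3 libraries lay together, so the genotypes overlapped. The log2 difference was 0.29 ± 0.25 (SE, n = 2 per group; limma adjusted p = 0.581 and 95% interval -0.36 to 0.94). With wild-type replicate 1 left out it was -0.08, and with replicate 2 left out 0.66. Such a fit assumes that the lone wild-type library varies like the knockout libraries. Relative to Stat3 in the same library, Socs3 was at 0.586 in wild-type replicate 1 and at 0.969, 1.01 and 1.02 in wild-type replicate 2 and the knockout libraries. The same library was lowest in the monocyte and erythroid marker sums given above, and the part of these cells in the Socs3 level was not tested.

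The rest of the pathway was taken from 6 lists of 109 genes, of which 63 were tested. None of the 63 passed the threshold (0.342% of all genes tested did), and 4 higher and 2 lower in knockout had an unadjusted p under 0.05 (8.35% and 9.56% of all genes tested). The ordinary linear model, which called no gene of any kind, called 0 of them. The median log2 difference was 0.01, against 0.02 over all genes tested. Leaving out wild-type replicate 1 took the number past the threshold to 16 (26% of all genes tested then passed). Leaving out wild-type replicate 2 took it to 22 (28.8%). Leaving out either knockout library left it at 0, but 0 of all genes tested then passed, so this 0 says nothing about the pathway genes.

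Most ligands of these receptors gave no signal: 16 of 24 were listed at 0 in all 4 libraries, among them Il6, Csf2 and Csf3, and 4 were tested. Osm, the gene of oncostatin M, a ligand of the IL-6 family, was the most abundant, at 93.5 and 93.7 FPKM for wild type against 100.4 and 108 FPKM for knockout (0.16 ± 0.07; limma adjusted p = 0.355). Ebi3 and Il27, which encode the subunits of IL-27, stood at 48.7 and 58.2 against 64.8 and 63.4 FPKM and at 4.57 and 5.51 against 6.24 and 6.03 FPKM. These 3 of the 4 lay higher in both knockout libraries (29.6% of all genes tested did), while Il15 overlapped.

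Of 37 receptor genes 18 were tested, 0 passed and the median log2 difference was -0.03. Csf3r, the G-CSF receptor, stood at 554 and 842 FPKM for wild type against 591 and 682 FPKM for knockout, the wild-type libraries being the extremes. Csf2rb, the signalling chain of the GM-CSF receptor, stood at 170 and 161 against 155 and 162 FPKM. The shared chain of the IL-6 family, Il6st, was near the bottom at 0.140 to 0.221 FPKM, although the IL-6 binding chain Il6ra stood at 25.1 to 27.2 FPKM. The lowest unadjusted p belonged to Il4ra, the IL-4 receptor chain, at 68.3 and 64.5 against 53.99 and 57.2 FPKM (-0.25 ± 0.08; limma adjusted p = 0.203).

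Of the 5 genes in the list of other STATs and their partner Irf9, 0 passed and 5 had positive differences. Stat6, which IL-4 activates, stood at 68.0 and 76.9 against 75.2 and 80.0 FPKM, and Stat4, of the IL-12 receptor, at 1.22 and 1.23 against 1.35 and 1.29 FPKM. Of the other SOCS genes, Socs4, Socs6 and Socs7 were tested and 0 passed, with Socs4 the highest at 7.02 to 7.54 FPKM, and Socs2 was at no more than 0.0474 FPKM.

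Phosphatases, PIAS proteins and adaptors modulate the same cascade, some restraining and some promoting it. Of 16 genes 15 were tested and 0 passed, with 6 positive differences. Ptpn6, the phosphatase SHP-1, stood at 227 and 276 against 247 and 257 FPKM and overlapped. Ptprc, the phosphatase CD45, stood at 407 and 450 against 356 and 397 FPKM and did not overlap (-0.19 ± 0.09; limma adjusted p = 0.374). Its difference was -0.05 over protein-coding transcripts only and -0.04 for its highest transcript, and with wild-type replicate 1 left out it was -0.26. The adaptor gene Sh2b3 stood at 29.3 and 31.4 against 28.0 and 29.4 FPKM.

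Among 22 genes known to be induced through STAT3 or STAT5, 18 were tested, 0 passed, and 9 had positive and 9 negative differences. Those with an unadjusted p under 0.05 were 3 higher in knockout (Lrg1, Cebpd and Junb; 8.35% of all genes tested) and 1 lower (Bcl3; 9.56%). Lrg1, which encodes a secreted leucine-rich glycoprotein of neutrophil granules, stood at 352 and 408 FPKM for wild type against 601 and 530 FPKM for knockout (0.57 ± 0.11; limma adjusted p = 0.127). Cebpd, a C/EBP transcription factor, stood at 41.5 and 62.3 against 95.6 and 75.4 FPKM, and the AP-1 gene Junb at 73.2 and 162 against 239 and 225 FPKM. In both, as for Socs3, wild-type replicate 1 was lowest. Without it the differences were 0.44 for Cebpd and 0.51 for Junb, and with wild-type replicate 2 left out instead they were 1.02 and 1.65. Bcl3, an atypical inhibitor of the NF-kB family, stood lower in knockout (36.6 and 42.3 against 31.8 and 29.6 FPKM), whereas its most abundant transcript taken alone had a difference of 0.40. The kinase gene Pim1, itself on the list, overlapped at 85.7 and 100.2 against 89.5 and 96.9 FPKM (0.01 ± 0.10; limma adjusted p = 0.976).

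**Figure D5:**
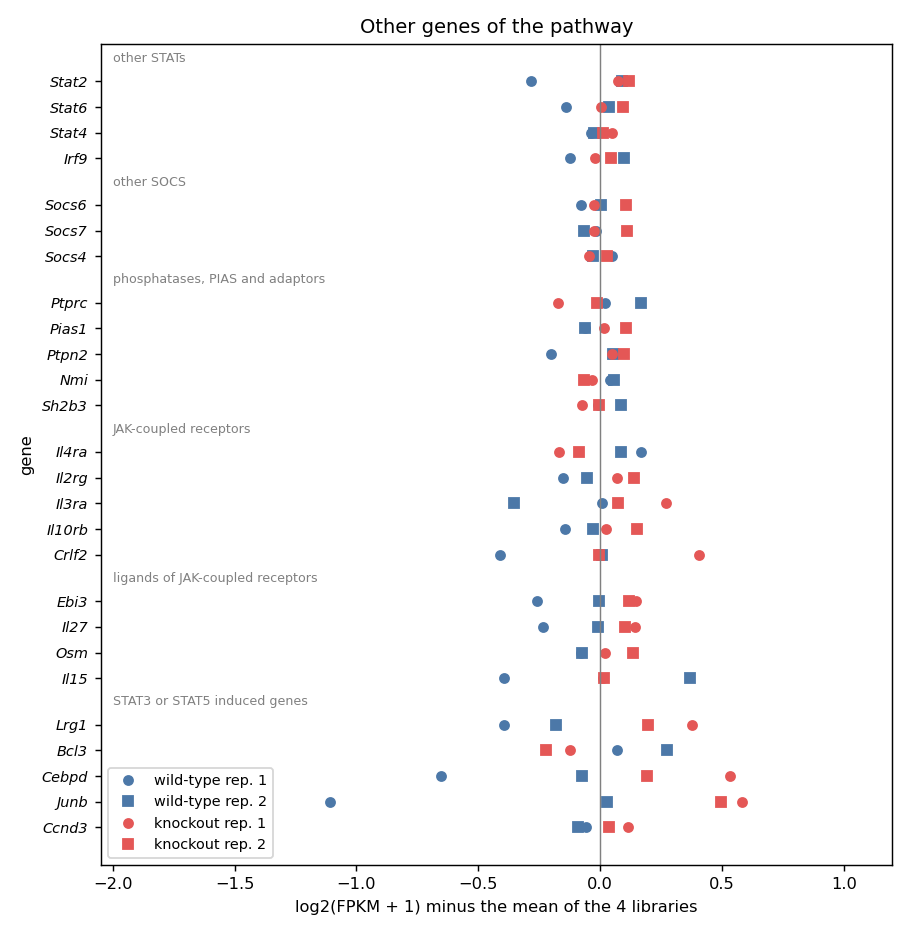
log2(FPKM + 1) minus the mean of the 4 libraries for genes of each list with the lowest unadjusted p, at most 5 per list (points are libraries, blue wild type, red knockout). Lrg1, Cebpd and Junb are higher in both knockout libraries, and wild-type replicate 1 is the lowest point of each.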

How the data were processed

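The authors deposited 1 table of FPKM values per transcript, with a column per library, per the file headers. Per the file headers it gives, for each transcript, a fold and a p-value, with a q-value, which served only to describe the authors' comparison. The submitters' processing notes name StringTie 2.1.4, HISAT2 2.1.0, SAMtools 1.9, R 3.6.1 and the build GRCm38 without their roles. The strand setting and annotation release were not given in the sources used. No FPKM column was left out.

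FPKM was summed per gene identifier and analysed as log2(FPKM + 1), which understates differences of low genes. Features whose mean reached 1 FPKM in wild type or knockout entered a limma fit (version 3.58.1, R 4.3.3) with a trend and no covariates, 2 against 2 libraries, two-sided, with Benjamini-Hochberg adjustment over all features tested. The fit was tested on simulated data with known differences and an equal spread in both genotypes. That test does not cover the unequal spread and depth of these libraries. Annotation is GENCODE M21 (GRCm38), which holds 114332 of 115220 transcripts. Relative depth came from steps of FPKM times length in single-exon genes, and no counting interval is given because steps may stand for reads or for fragments.

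The 10 genes and the lists were chosen with earlier results of these data known. Named transcripts hold at least 10% of their gene in a library, and named pathway genes are the up to 5 per list with the lowest unadjusted p. Outside this rule, the lower Stat3 retained-intron forms and Stat3-214, and Csf3r, Csf2rb, Il6st, Il6ra, Ptpn6, Socs2, Pim1 and the ligands listed at 0 were chosen after their values were seen. The labels do not say whether the replicate numbers pair the samples, and the main fit treated them as unpaired. The values of 1 gene named by the rule are not reported here.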

Additional observations from a re-analysis of the deposited data

How the results depend on the processing

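No gene or transcript of the 10 passed under any alternative that kept all 4 libraries. With 1 library left out, 0 to 2 of the 10 genes passed, 0 to 22 pathway list genes, 0 to 2938 of all genes and 0 to 1 of all transcripts, each of the larger gene counts with a wild-type library left out. Of all genes, 35 passed as reported, 0 without a filter or with an ordinary linear model, 16 at 5 FPKM, 21 with quantile normalization, 23 when rescaled without 7SL, 7SK and mitochondrial RNA, and 15 over protein-coding transcripts only. Of all transcripts, 47 passed as reported, 1 without a filter, 0 with an ordinary linear model, 71 with quantile normalization and 1 with the replicate block. The correlation of replicate differences between genotypes was 0.0065, and their SD was 0.337 for wild type and 0.145 for knockout. This cannot show whether the numbers pair samples, as a shared effect may be small beside the other spread. With the replicate block 34 of all genes and 0 of the 10 passed. No scaling moved the median of all features by over 0.1.

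Some differences changed sign. With quantile normalization they were -0.00026 for Jak2, 0.0215 for Cish, -0.0145 for Stat5b-201 and 0.0270 for Cish-201. When rescaled without the named RNAs they were -0.0155 for Jak2, -0.0136 for Irf9, -0.0047 for Il15 and -0.0151 for Stat5b-201, and with median centring 0.0670 for Jak2-202 and 0.0142 for Cish-201. From the highest transcript only they were -0.0197 for Jak2, 0.414 for Sh2b3, 0.398 for Bcl3 and -0.629 for Ccnd3, and from protein-coding transcripts only, added after seeing the data, 0.0397 for Stat3 and 0.327 for Sh2b3. Leaving out 1 library gave -0.0288 to 0.0762 for Jak2, -0.0911 to 0.231 for Jak3, -0.0822 to 0.662 for Socs3, -0.0833 to 0.136 for Irf9, -0.0566 to 0.0205 for Socs4 and -0.355 to 0.406 for Il15. Among transcripts it gave -0.0393 to 0.0881 for Stat5b-201, -0.273 to 0.0692 for Stat5a-201, -0.0638 to 0.179 for Stat5a-203, -0.181 to 0.844 for Stat3-202, -0.556 to 0.0791 for Stat3-203, -0.0679 to 0.666 for Socs3-201, -0.0660 to 0.0267 for Jak2-202, -0.795 to 0.0352 for Jak3-204 and -0.248 to 0.103 for Cish-201. The cause of these changes was not tested.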
